A study of Mus musculus with 8 samples.

Results

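Nodal signalling was examined through 9 mouse genes out of the 23389 symbols that each library's table lists: the ligand genes Nodal and Gdf3, the inhibitor genes Lefty1, Lefty2 and Cer1, the co-receptor gene Tdgf1, and the receptor genes Acvr1b, Acvr2a and Acvr2b. They were chosen by name, as ligands, inhibitors, co-receptor and receptors of the pathway, with earlier results of these data known. Poly-A RNA was sequenced from 8 libraries in 4 groups of 2. The 3F+IL6 group holds a pair of induced pluripotent stem (iPS) clones that were made from mouse embryonic fibroblasts with Oct4, Klf4 and Sox2 and treated with IL6, a cytokine, at 10 ng/mL. The 4F group holds a pair of iPS clones for which the labels give the name 4F and no IL6 treatment. Each clone was derived independently. The ES group holds 2 biological replicates of D3-GFP embryonic stem cells, a single established line, and the MEF group holds 2 biological replicates of embryonic fibroblasts. The genetic background is 129S2/SvPas for the ES cells and BALB/c for both kinds of clone and the fibroblasts, so strain and cell type cannot be told apart in any comparison with ES cells. The factor set and IL6 change together between the kinds of clone and cannot be told apart either. The clones are the subject of the study, and the ES cells and fibroblasts serve as its references.

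Nodal is a secreted ligand of the TGF-beta family. It binds type II activin receptors (Acvr2a, Acvr2b) and the type I receptor Acvr1b (ALK4) with the help of the membrane-anchored co-receptor Tdgf1 (Cripto), and the receptors phosphorylate Smad2 and Smad3, which enter the nucleus with Smad4 and act with partners such as Foxh1. Gdf3 is a related ligand of pluripotent cells that also uses Cripto. Lefty1, Lefty2 and Cer1 (Cerberus) are secreted inhibitors, and in the mouse embryo the Lefty genes are themselves induced by Nodal signalling, which closes a feedback loop. In the embryo the pathway is known for patterning the epiblast and inducing mesendoderm, and cultured mouse pluripotent cells express most of its parts.

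The Lefty genes are near-copies that lie beside each other on chromosome 1 of mm10, Lefty2 at 180893108 to 180899103 and Lefty1 at 180935022 to 180938400, both on the plus strand. Their sequences are shown because a read from a stretch that they share cannot be placed in either gene. The coding sequences in GENCODE release M21 are 1104 bases long in each gene and identical at 1014 positions (91.8%), with a longest shared run of 140 bases. The 60 coding bases 272 to 331 are the same in both genes, and the 60 coding bases 34 to 93 are the least alike window, with 42 identical positions; capitals mark the letters that differ.
Lefty1 and Lefty2, coding bases 272 to 331: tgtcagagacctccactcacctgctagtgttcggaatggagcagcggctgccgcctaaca
Lefty1, coding bases 34 to 93: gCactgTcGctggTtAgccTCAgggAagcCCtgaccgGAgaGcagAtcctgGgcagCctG
Lefty2, coding bases 34 to 93: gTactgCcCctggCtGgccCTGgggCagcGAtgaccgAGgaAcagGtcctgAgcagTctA
Of the 50-base windows of the Lefty1 transcript, 281 of 1571 (17.9%) also occur in Lefty2, and the same 281 are 11.6% of the 2424 windows of Lefty2. Reads were 50 bases long, and how the authors placed reads that match several genes is not given in the sources used here, so the split between Lefty1 and Lefty2 carries that uncertainty. Other members also share sequence with another gene. Tdgf1 shares 236 of 1883 windows (12.5%) with the pseudogene Tdgf1-ps1, and Acvr2a shares 397 of 5637 (7.04%) with Orc4, a gene on the opposite strand whose end (chromosome 2, 48902824 to 48950277) overlaps that of Acvr2a (48814109 to 48903269). Whether counting used the strand is not stated in the labels, so reads of Orc4 may be included in Acvr2a. Nodal, Acvr1b and Acvr2b share 0 windows with any other symbol.

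RefSeq promoters, from 250 bases before to 50 bases after the start of the gene in build GRCm38.p6, were at hand for 6 of the 9 members: Nodal, Cer1, Tdgf1, Acvr1b, Acvr2a and Acvr2b. The letters TGTNNATT, a loose pattern for FOXH1, were searched on both strands. They occurred in 1 of the 6, that of Tdgf1, against 12.2% of all 32851 promoters of that length. The stricter letters TGTGNATT occurred in 0 of the 6, so the Tdgf1 matches hold the loose pattern only. The SMAD letters CAGAC, on both strands, occurred in 4 of the 6 (Cer1, Tdgf1, Acvr2a and Acvr2b) against 49.6% of all promoters. The SMAD letters GGCGCC, which read the same on both strands, occurred in Acvr1b alone, 1 of the 6, against 11.9%. The 250 bases upstream of Tdgf1 and of Cer1 are shown because Tdgf1 was the most abundant member and Cer1 the one that differed most between clones. Capitals mark the loose FOXH1 pattern, read as AATTTACA on the printed strand, and CAGAC. None of these matches overlap.
Tdgf1, chr9:110946159-110946408, minus strand: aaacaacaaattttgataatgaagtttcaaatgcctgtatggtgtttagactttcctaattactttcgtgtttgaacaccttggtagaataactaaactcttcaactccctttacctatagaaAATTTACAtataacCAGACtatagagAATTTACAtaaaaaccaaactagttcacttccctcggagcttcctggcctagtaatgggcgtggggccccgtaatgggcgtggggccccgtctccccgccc
Cer1, chr4:82885152-82885401, minus strand: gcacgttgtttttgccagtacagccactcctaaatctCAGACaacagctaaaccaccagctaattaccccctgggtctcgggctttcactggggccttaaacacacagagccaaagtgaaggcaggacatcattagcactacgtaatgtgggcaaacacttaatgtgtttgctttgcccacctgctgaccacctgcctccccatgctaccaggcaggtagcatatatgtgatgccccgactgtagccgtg
In Tdgf1 the matches to the loose FOXH1 pattern begin at −127 and −101 from the start and CAGAC begins at −113, between them. In Cer1 the CAGAC letters begin at −213. A match is a run of letters in this window and nothing more.

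Expression is given in RPKM (reads scaled to the length of the gene and the size of the library), so levels can be set side by side between genes. Differences are of log2(RPKM + 1), a scale on which the change of a gene near 0 looks smaller than it is. They were tested with limma over the 13200 genes with at least 1 RPKM in at least 2 libraries, and a gene is called where its Benjamini-Hochberg adjusted p over all these genes is under 0.05. With 2 libraries a group, p-values measure only the spread between libraries. That spread is pooled over the 4 groups and moderated over genes, so it is not that of the compared groups alone. Of the 9 members 8 passed the filter, and Cer1, which reached 1 RPKM in 1 library, did not. Estimated depths were 11700000 to 18200000 reads. The median gene differed between the libraries of a group by 0.06 on the log2 scale in ES, 0.10 in 4F, 0.05 in MEF and 0.18 in 3F+IL6, whose clone 2 stood apart in several members below. The 8 pluripotency markers summed to 4605 to 5736 RPKM in ES cells and clones and to 6.50 and 8.00 in MEF. The 10 fibroblast markers summed to 9.87 and 10.3 RPKM in ES cells, 178.5 and 271.7 in 3F+IL6, 167.8 and 141.7 in 4F, and 2708 and 2697 in MEF. None of the 10 was at 0 in a clone, and Lum was at 0 in ES 2. Their part in the results was examined by an alternative that subtracts a fibroblast share. That share was 7.66% to 11.6% in the clones and at most 0.212% in ES cells. It is the median over the 10 markers of a library's level relative to MEF, and the markers differed widely. Dcn was at 44.1 and 66.6 RPKM in 3F+IL6 against 34.7 and 33.7 in MEF. Thy1 was at 11.4 and 16.5 against 535.1 and 523.8. A single share for all genes is therefore rough. The subtraction changed the call of 0 of the 8 tested members in any comparison. For Nodal, Gdf3, Lefty1, Lefty2, Tdgf1 and Acvr2b it could hardly do so, since their MEF means were only 0.0133 to 1.09 RPKM. The alternative therefore bears mainly on Acvr1b and Acvr2a, with MEF means of 6.13 and 5.86 RPKM.

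**Figure D1:**
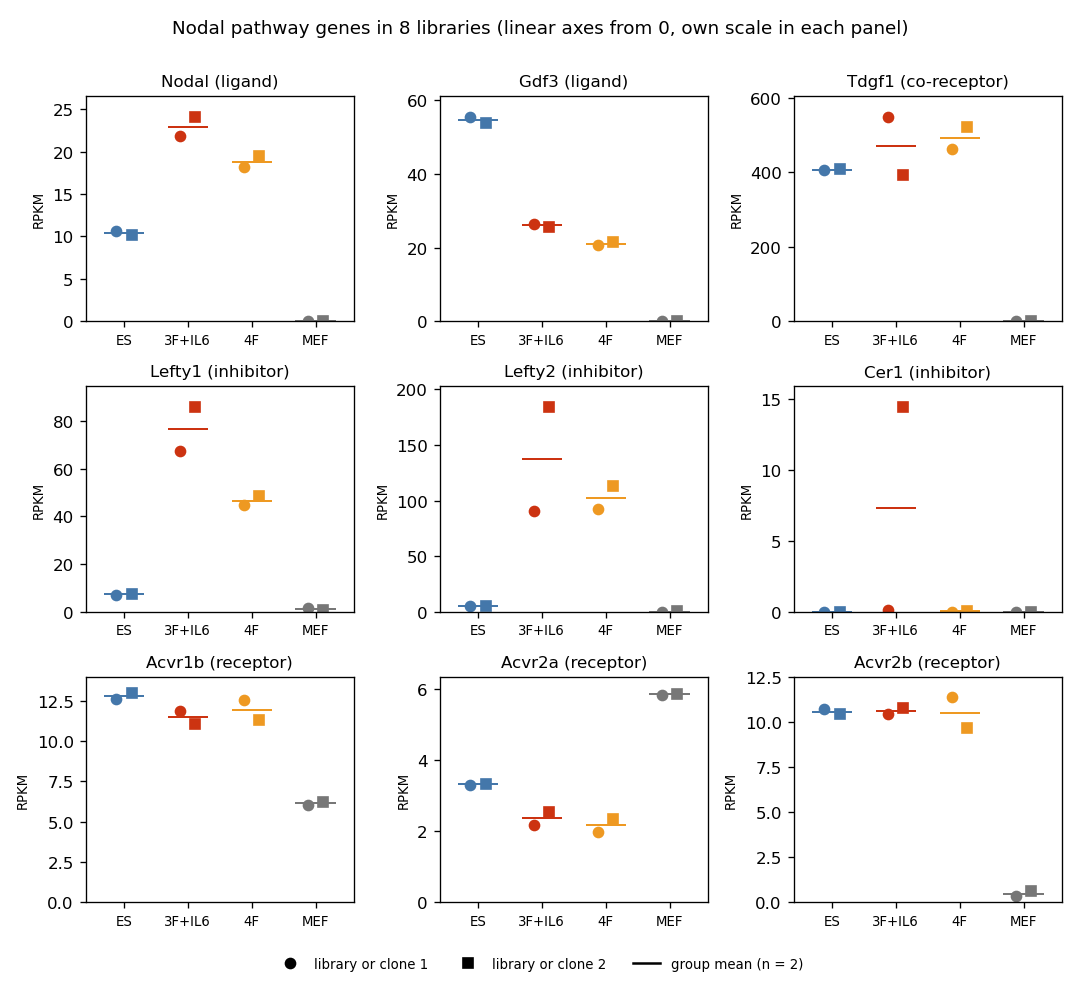
Levels of the 9 Nodal pathway genes in RPKM (vertical axes, linear from 0, a separate scale in each panel) for the ES, 3F+IL6, 4F and MEF groups; each point is a library or clone and the line is the mean of 2. Lefty1 and Lefty2 are higher in all 4 clones than in both ES libraries, Gdf3 is lower, and Cer1 reaches 14.4 in a single 3F+IL6 clone.

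Both kinds of clone were compared with ES cells. In the clones the inhibitor genes Lefty1 and Lefty2 and the ligand gene Nodal were higher than in ES cells, the ligand gene Gdf3 and the receptor gene Acvr2a were lower, and Tdgf1, Acvr1b and Acvr2b were not called. For 3F+IL6 against ES, 5 of 8 tested members were called, 3 higher and 2 lower, where 63.4% of all 13200 genes were called, 33.1% higher and 30.3% lower. For 4F against ES, 5 of 8 were called, 3 higher and 2 lower, against 67.2% of all genes, 33.7% higher and 33.5% lower. Both shares of members are near the background, so the count of calls is not a result about the members. The median difference of the 8 was 0.10 in 3F+IL6 and 0.13 in 4F, against 0.01 and 0.0041 over all genes. The comparisons share the same ES libraries, so their values are given side by side and not as independent evidence.

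Lefty2, the Nodal antagonist known from the left side of the mouse embryo, had the largest difference of any member from ES cells. It was at 4.95 and 5.26 RPKM in ES 1 and ES 2, 90.7 and 184.0 in 3F+IL6 clones 1 and 2, 92.4 and 113.0 in 4F clones 1 and 2, and 0.0504 and 0.18 in MEF. Every clone was far above both ES libraries, and the groups did not overlap. The log2 difference from ES was 4.42 (SE 0.29; limma adjusted p = 3.07e-05) in 3F+IL6 and 4.08 (SE 0.29; limma adjusted p = 4.25e-05) in 4F. Without 3F+IL6 clone 2, the highest library, the difference in 3F+IL6 was 3.91.

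Lefty1, the paralog that marks the midline in the embryo, moved the same way from a similar ES level. It was at 6.86 and 7.55 RPKM in ES cells, 67.5 and 85.8 in 3F+IL6, 44.6 and 48.4 in 4F, and 1.36 and 0.819 in MEF. The clones lay above ES cells without overlap, and the 3F+IL6 clones above the 4F clones. The log2 difference from ES was 3.23 (SE 0.15; limma adjusted p = 9.45e-06) in 3F+IL6 and 2.53 (SE 0.15; limma adjusted p = 2.36e-05) in 4F. Which paralog led also changed. Within a library the ratio of Lefty1 to Lefty2 was 1.38 and 1.44 in ES cells, 0.745 and 0.466 in 3F+IL6, and 0.483 and 0.428 in 4F, so Lefty1 was the more abundant paralog in ES cells and Lefty2 in every clone. This ratio rests on how shared reads were placed.

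Nodal itself (chromosome 10, 61417972 to 61425338, plus strand) was also higher in the clones. It was at 10.6 and 10.2 RPKM in ES cells, 21.8 and 24.1 in 3F+IL6, 18.2 and 19.4 in 4F, and 0.0267 and 0 in MEF. The clones were above ES cells with no overlap. The log2 difference was 1.07 (SE 0.08; limma adjusted p = 6.20e-05) in 3F+IL6 and 0.80 (SE 0.08; limma adjusted p = 0.0002) in 4F, far less than the differences of the Lefty genes on this scale.

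Gdf3 (chromosome 6, 122605403 to 122610087, minus strand), the other ligand, went the opposite way. It was at 55.5 and 53.9 RPKM in ES cells, 26.4 and 25.7 in 3F+IL6, 20.6 and 21.5 in 4F, and 0.2 and 0.0956 in MEF. ES cells were higher than every clone. The difference from ES fell by 1.04 on the log2 scale (SE 0.07; limma adjusted p = 3.81e-05) in 3F+IL6 and by 1.34 (SE 0.07; limma adjusted p = 1.55e-05) in 4F. Gdf3 was 5.24 and 5.31 times as abundant as Nodal in ES cells, 1.21 and 1.07 times in 3F+IL6, and 1.13 and 1.10 times in 4F, so the ligands were near parity in the clones.

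**Figure D2:**
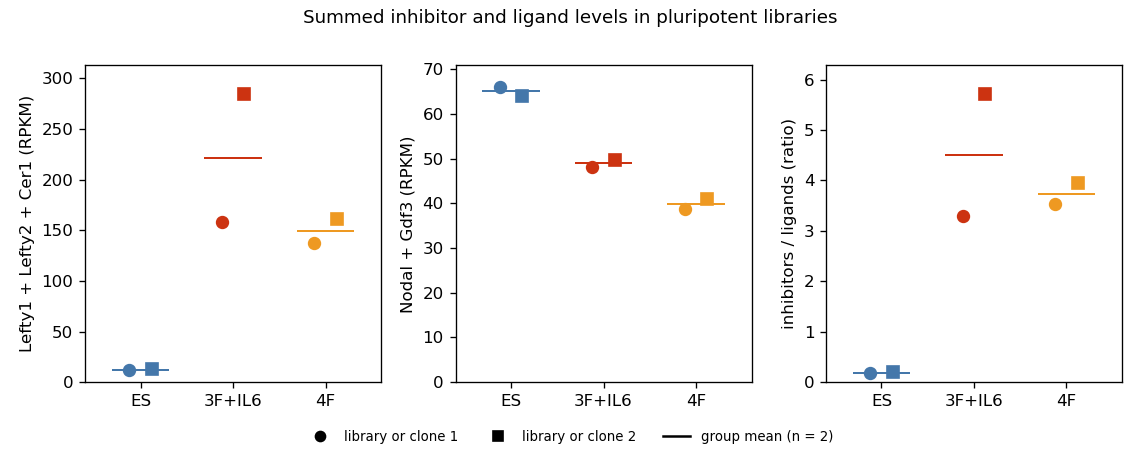
Summed RPKM of the inhibitor genes (left), of the ligand genes (middle) and their ratio (right) in the 6 pluripotent libraries, linear axes from 0; points are libraries or clones and lines are means of 2. The ratio lies at 0.179 and 0.2 in ES cells and between 3.29 and 5.71 in the clones.

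Set against each other, the inhibitors passed the ligands in the clones. The summed level of Lefty1, Lefty2 and Cer1 was 11.8 and 12.8 RPKM in ES cells, 158.3 and 284.2 in 3F+IL6, and 137.1 and 161.4 in 4F. The summed level of Nodal and Gdf3 was 66.1 and 64.1 RPKM in ES cells, 48.2 and 49.8 in 3F+IL6, and 38.8 and 40.9 in 4F. Inhibitor over ligand was therefore 0.179 and 0.2 in ES cells, 3.29 and 5.71 in 3F+IL6, and 3.53 and 3.94 in 4F, with ES cells below 1 and every clone above it. In MEF the ratio was 6.22 and 10.5, from inhibitor sums of 1.41 and 1.00 RPKM and ligand sums of 0.227 and 0.0956. The ligand sum holds Nodal and Gdf3 only, and not the other ligand genes examined below. These ratios are within a library and do not depend on how libraries were scaled; they are descriptions, with no test.

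Tdgf1 (Cripto), the co-receptor, was by far the most abundant member in every pluripotent library. It was at 405.9 and 409.0 RPKM in ES cells, 549.3 and 393.1 in 3F+IL6, 463.5 and 523.2 in 4F, and 0.349 and 0.597 in MEF. The 3F+IL6 clones lay on either side of the ES libraries, and both 4F clones lay above them. Neither difference was called, at 0.19 (95% interval −0.18 to 0.56; limma adjusted p = 0.324) for 3F+IL6 and 0.27 (−0.10 to 0.65; limma adjusted p = 0.164) for 4F. The Tdgf1 result in 3F+IL6 depended on which clone was kept, at 0.43 (limma adjusted p = 0.0121) without clone 2 and −0.05 (limma adjusted p = 0.702) without clone 1. For 4F the Tdgf1 difference of 0.27 was called in the fit of only the 4 libraries compared and without either 3F+IL6 clone, with limma adjusted p from 0.0163 to 0.0304. The ratio of Tdgf1 to Nodal in RPKM was 38.3 and 40.3 in ES cells, 25.2 and 16.3 in 3F+IL6, and 25.5 and 26.9 in 4F.

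Of the receptors, the type I receptor gene Acvr1b and the type II receptor gene Acvr2b were not called between clones and ES cells. Acvr1b was at 12.6 and 13.0 RPKM in ES cells, 11.9 and 11.1 in 3F+IL6, 12.5 and 11.3 in 4F, and 6.02 and 6.24 in MEF. Its log2 difference from ES was −0.15 (95% interval −0.34 to 0.04; limma adjusted p = 0.149) in 3F+IL6 and −0.10 (−0.29 to 0.09; limma adjusted p = 0.318) in 4F, with each clone slightly below both ES libraries. Acvr2b was at 10.7 and 10.4 RPKM in ES cells, 10.5 and 10.7 in 3F+IL6, and 11.4 and 9.65 in 4F. Its intervals against ES ran from −0.27 to 0.28 in 3F+IL6 and from −0.28 to 0.26 in 4F, and its groups overlapped.

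Acvr2a, the other type II receptor gene, was lower in the clones. It was at 3.31 and 3.32 RPKM in ES cells, 2.18 and 2.53 in 3F+IL6, 1.98 and 2.34 in 4F, and 5.85 and 5.86 in MEF. ES cells lay above every clone and below both fibroblast libraries. The difference from ES was −0.36 (SE 0.10; limma adjusted p = 0.0149) in 3F+IL6 and −0.45 (SE 0.10; limma adjusted p = 0.00533) in 4F. The 3F+IL6 call was lost in the fit of only the 4 libraries compared (adjusted p = 0.0563), with RNAs without a poly-A tail as a covariate (adjusted p = 0.0765), and without ES 1 (adjusted p = 0.0706) or ES 2 (adjusted p = 0.0733). Acvr2b was 3.23 and 3.14 times as abundant as Acvr2a in ES cells, 4.80 and 4.24 times in 3F+IL6, and 5.74 and 4.13 times in 4F.

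**Figure D3:**
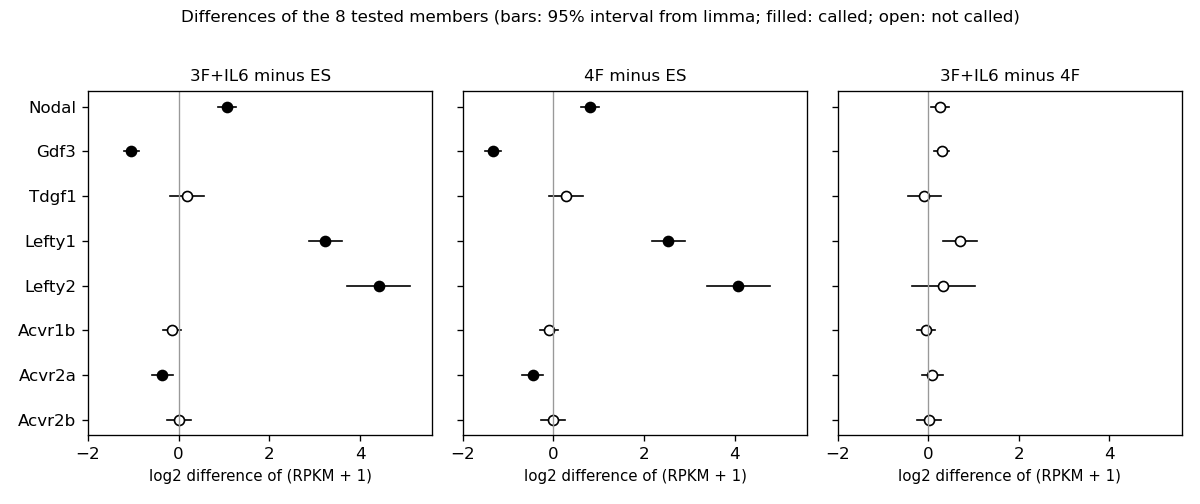
Log2 differences of (RPKM + 1) for the 8 tested members (horizontal axis), 3F+IL6 minus ES, 4F minus ES and 3F+IL6 minus 4F, with 95% intervals from limma; filled points are called and open points are not. Lefty2 lies at 4.42 and 4.08 in the comparisons with ES, and no point is filled between the kinds of clone.

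Between the kinds of clone, where the factor set and IL6 change together, limma called 0 of the 8 members, and 3 had an unadjusted p under 0.05. Over all genes 1.34% were called, 0.773% higher and 0.568% lower in 3F+IL6. An unadjusted limma p under 0.05 was reached by 3198 of all 13200 genes, so it was common. The median difference was 0.18 over the 8 members and 0.03 over all genes. The 3 with an unadjusted p under 0.05 were Lefty1 at 0.70 (95% interval 0.33 to 1.07; limma adjusted p = 0.0742), Gdf3 at 0.30 (0.12 to 0.47; limma adjusted p = 0.0879) and Nodal at 0.27 (0.07 to 0.47; limma adjusted p = 0.127). In the fit of only the 4 libraries compared, their limma adjusted p was 0.383, 0.449 and 0.459 in that order. For each of these 3 genes both 3F+IL6 clones lay above both 4F clones. How many of all genes were separated in this way was not counted. The 3 genes were picked by their p-values, so this separation adds no support to a difference. Lefty2 differed by 0.34 with an interval from −0.36 to 1.03, and its groups overlapped. The intervals of Tdgf1 (−0.46 to 0.29), Acvr1b (−0.24 to 0.14), Acvr2a (−0.14 to 0.32) and Acvr2b (−0.26 to 0.29) all held 0, and their groups overlapped.

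These values rested on single clones. Without 3F+IL6 clone 1, limma called 4 of the 8 members higher in 3F+IL6, namely Lefty1 (0.87), Lefty2 (0.84), Nodal (0.34) and Gdf3 (0.28), and 4782 of all genes; the lone clone 2 is then assumed to vary like the other groups. Without 3F+IL6 clone 2, 0 members were called, 831 of all genes were, and the Lefty2 difference turned to −0.17. The count over all genes fell from 177 to 1 without 4F clone 2, 3 without 4F clone 1, 8 without either ES library and 7 without either MEF library. RNAs without a poly-A tail, which poly-A selection should remove, moved with the kind of clone. The 3 such RNAs summed to 64.9 and 60.8 RPKM in 3F+IL6 and 610.4 and 596.1 in 4F, against 89.8 and 704.1 in the ES libraries. With that sum as a covariate limma called 2 genes of all tested and again 0 members.

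Cer1 (chromosome 4, 82881751 to 82885148, minus strand), the secreted inhibitor known from the anterior endoderm of the embryo, was present in 1 library. It was at 0.129 RPKM in 3F+IL6 clone 1 and 14.4 in clone 2, a ratio of 112. It was listed at 0 in both ES and both MEF libraries and in 4F clone 1, and was at 0.046 in 4F clone 2. At the estimated depths this is about 356 reads in 3F+IL6 clone 2, 3 in clone 1 and 1 in 4F clone 2. Of the 13200 genes tested, 8 (0.0606%) differed as much between the 3F+IL6 clones. Without the filter, limma did not call it for 3F+IL6 against 4F (2.03, SE 1.09; adjusted p = 0.363) or against ES (2.06, SE 1.09; adjusted p = 0.175).

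**Figure D4:**
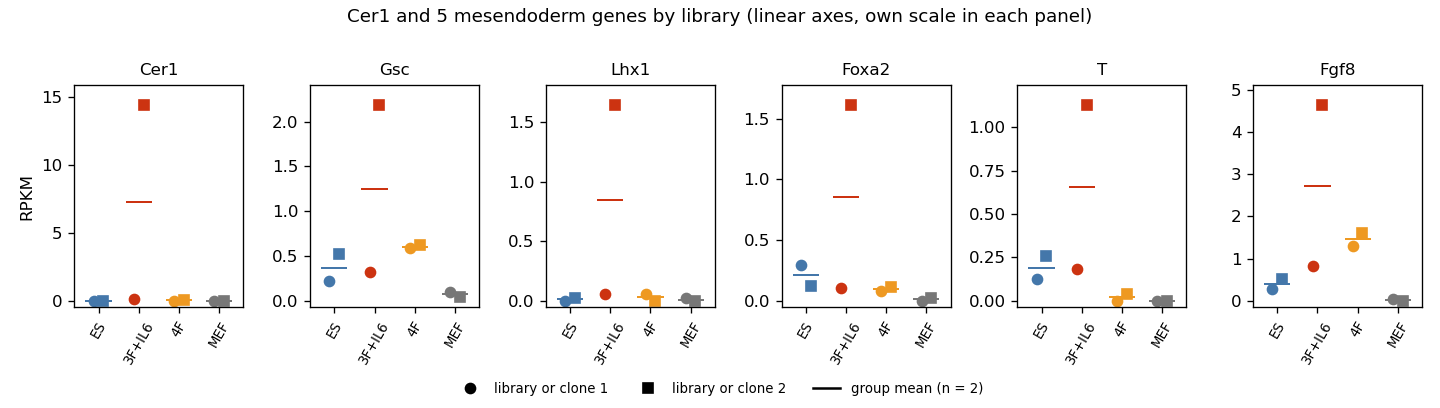
Levels in RPKM (linear axes from 0, a separate scale in each panel) of Cer1 and of 5 mesendoderm genes, Gsc, Lhx1, Foxa2, T and Fgf8, by group; points are libraries or clones and lines are means of 2. In each panel 3F+IL6 clone 2 is the highest library, at 14.4 for Cer1 and 1.13 to 4.63 for the others.

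Several mesendoderm genes, which Nodal signalling is known to induce in the embryo, were high in the same clone. Gsc, a homeobox gene of the organizer, was at 2.18 RPKM in 3F+IL6 clone 2 and 0.323 in clone 1. Lhx1 was at 1.64 and 0.0537 in the same order, Foxa2 at 1.61 and 0.105, and T (Brachyury) at 1.13 and 0.182. Fgf8, a signal of the primitive streak, was at 4.63 and 0.82. Of the 10 mesendoderm targets in the list of other pathway genes, 8 had their highest level of the 8 libraries in clone 2, where 13.4% of all 19478 symbols above 0 had theirs; these genes were singled out after their values were seen. Among the others, Eomes was at 1.92 in clone 2 and 3.51 in ES 2. These levels are low, and at the estimated depth Gsc had about 39 reads in clone 2. The 6 markers of primitive streak and mesendoderm summed to 7.80 RPKM in clone 2 and to 2.02 to 4.72 in the other pluripotent libraries. The 10 markers of primitive and visceral endoderm summed to 11.3 in clone 2 and 6.17 to 11.7 in the other pluripotent libraries. Among pluripotent libraries Foxa2 (1.61), Sox17 (0.908) and Dab2 (3.11) were highest in clone 2. Foxa2 and Sox17 are also among the 10 mesendoderm targets. Gata4, Gata6, Sox7, Amn, Cubn, Afp and Ttr were highest in another pluripotent library, with Ttr at 0 and Afp at 0.134 in clone 2. The part of such cells in the Cer1 level was not tested, and in bulk RNA a few cells with much of an RNA and many cells with little of it cannot be told apart.

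Other members also set clone 2 apart from clone 1. Lefty2 was 2.03 times as high in clone 2, a gap that 1.52% of the tested genes reached between these clones. Lefty1 was 1.27 times as high (24.4% of genes) and Tdgf1 was 0.716 times as high (12.6% of genes). Nodal at 1.11 times, Gdf3 at 0.975 times and Acvr2b at 1.03 times were closer than most genes, 60.1%, 89.1% and 89.0% of which differed at least as much. The fibroblast markers, too, were higher in clone 2, at 271.7 against 178.5 RPKM.

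Against the fibroblasts from which the clones were made, 7 of the 8 tested members were higher in every pluripotent group and Acvr2a was lower. All 8 were called in 3F+IL6 against MEF, where 82.1% of all genes were called, 49.4% higher and 32.6% lower. All 8 were likewise called in 4F against MEF (83.6% of all genes, 49.2% higher and 34.4% lower) and in ES against MEF (81.7%, 49.7% higher and 32.0% lower). The median difference of the 8 members was 4.56, 4.28 and 2.72 in that order, against 0.26, 0.25 and 0.27 over all genes. Quantile normalization lowered the median over all genes by 0.20, 0.16 and 0.13, and changed no call of a member. The comparisons share the same MEF libraries.

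On the log2(RPKM + 1) scale Tdgf1 had the largest difference of any member from fibroblasts. It was 8.31 for 3F+IL6, 8.39 for 4F and 8.12 for ES, each with an SE of 0.16 (limma adjusted p = 3.36e-08, 3.10e-08 and 3.17e-08). Nodal was at 0.0267 RPKM in MEF 1, about 1 read, and listed at 0 in MEF 2. Its differences of 4.56, 4.29 and 3.49 in the same order are set by the pseudocount and are no estimate of a fold. The MEF levels of Tdgf1, Gdf3, Lefty2 and Acvr2b were also under the pseudocount of 1. Their differences from MEF, and the order of the members by them, depend on it too. Gdf3 differed by 4.56, 4.26 and 5.6, and ES cells led here. Lefty2 differed by 6.87, 6.53 and 2.45 and Lefty1 by 5.22, 4.52 and 1.98, so for both Lefty genes the ES cells lay nearer the fibroblasts than the clones did. All these differences passed the test, with limma adjusted p of at most 0.000147.

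Among the receptors, fibroblasts and pluripotent cells differed in which type II gene they held. Acvr2b was at 0.331 and 0.582 RPKM in MEF and at 9.65 to 11.4 in the 6 pluripotent libraries, a log2 difference of 3.00, 2.98 and 2.99 for 3F+IL6, 4F and ES (SE 0.12; limma adjusted p at most 4.89e-07). Acvr2a was at 5.85 and 5.86 in MEF and 1.98 to 3.32 in pluripotent libraries, with differences of −1.03, −1.12 and −0.67 (SE 0.10; limma adjusted p at most 0.000479). The ratio of Acvr2b to Acvr2a was 0.0565 and 0.0993 in MEF and 3.14 to 5.74 in pluripotent libraries. Acvr1b was 0.81, 0.86 and 0.95 higher than in MEF (SE 0.08; limma adjusted p at most 5.51e-05) and was, with Acvr2a, a member above 5 RPKM in fibroblasts. Lefty1, at 1.36 and 0.819, was the next in MEF.

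The orders of the groups can be read from these levels. For Nodal, Lefty1 and Lefty2 the mean fell from 3F+IL6 through 4F and ES to MEF, and the step from 3F+IL6 to 4F was the one not called. For Gdf3 the order was ES, 3F+IL6, 4F and MEF, again with the step between the kinds of clone not called. For Tdgf1, Acvr1b and Acvr2b no step among the 3 pluripotent groups was called. For Acvr2a the order was MEF, ES, 3F+IL6 and 4F, with the step between the kinds of clone not called.

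The rest of the pathway was followed in 32 further genes, of which 22 passed the filter. The 10 that did not were the inhibin subunit gene Inha, the co-receptor gene Cfc1, the receptor gene Acvr1c, and T, Mixl1, Gsc, Foxa2, Lhx1, Wnt3 and Sox17. Acvr1c, which encodes ALK7, an alternative type I receptor for Nodal, was listed at 0 in every library. In 3F+IL6 against ES, where 63.4% of all genes were called, 8 of the 22 were higher and 9 lower, with a median difference of 0.08. In 4F against ES, where 67.2% of all genes were called, 7 were higher and 9 lower (median −0.13). Against MEF the counts were 8 higher and 9 lower for 3F+IL6 (median −0.11; 82.1% of all genes called), 9 and 11 for 4F (−0.18; 83.6%) and 9 and 7 for ES (0.12; 81.7%). Calls were thus common over all genes in these 5 comparisons, and the list had members called in both directions in each. Between the kinds of clone 0 of the 22 were called by limma, against 1.34% of all genes. An unadjusted limma p under 0.05 was reached by 7 of the 22 and by 3198 of all 13200 genes.

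Among the larger called changes against ES cells were those of Inhba, Fstl3 and Smad7. Smad7, an intracellular inhibitor that acts at the receptor, was at 27.9 and 26.8 RPKM in ES cells, 7.76 and 11.3 in 3F+IL6, and 7.14 and 8.45 in 4F. It fell by 1.45 in 3F+IL6 (SE 0.16; limma adjusted p = 0.000251) and by 1.69 in 4F (SE 0.16; limma adjusted p = 0.000118), and lay at 29.3 and 30.3 in MEF.

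Inhba, which encodes the subunit of activin A, was at 0.292 and 0.395 RPKM in ES cells, 5.83 and 6.09 in 3F+IL6, 4.95 and 6.90 in 4F, and 466.9 and 458.7 in MEF. It was higher than in ES cells by 2.37 in 3F+IL6 and 2.35 in 4F (SE 0.13; limma adjusted p = 1.53e-05 and 1.60e-05). With the fibroblast share subtracted, Inhba was at 0 in the clones and in ES cells and the call was gone, a result that rests on that rough share. Fstl3, a secreted binder of activin, was at 0.746 and 0.784 RPKM in ES cells, 7.32 and 4.01 in 3F+IL6, 7.96 and 6.54 in 4F, and 22.9 and 22.1 in MEF. Its differences from ES were 1.87 and 2.22 (SE 0.22; limma adjusted p = 0.000363 and 0.000157), and with the fibroblast share subtracted they were 1.31 and 1.98 and still called. Fst, follistatin, passed the test in 3F+IL6 against ES at 0.62 (limma adjusted p = 0.0153), and turned to −0.65 with the fibroblast share subtracted. That call was also lost with quantile normalization (0.34; adjusted p = 0.0823), in the fit of only the 4 libraries compared (adjusted p = 0.0721), with RNAs without a poly-A tail as a covariate (adjusted p = 0.0544) and without ES 1 (0.56; adjusted p = 0.0802). Its value was 0.89 without 3F+IL6 clone 1 and 0.34 without clone 2.

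Against fibroblasts the largest changes on the log2(RPKM + 1) scale were in Inhba, Fst, Foxh1 and, in the clones, Furin. The MEF levels of Foxh1 were under the pseudocount of 1, so its differences depend on it. Foxh1, the DNA-binding partner of Smad2, was at 44.1 to 53.8 RPKM in the 6 pluripotent libraries and at 0.141 and 0.0922 in MEF, higher by 5.59, 5.40 and 5.56 in 3F+IL6, 4F and ES (SE 0.08; limma adjusted p at most 1.32e-08). Fst was at 182.5 and 182.8 RPKM in MEF and 0.81 to 2.50 in the pluripotent libraries, with log2 differences of −5.99, −6.45 and −6.61 in 3F+IL6, 4F and ES. Furin, a convertase that cleaves the Nodal precursor, was at 68.9 and 69.3 RPKM in MEF and 10.2 to 13.8 in the pluripotent libraries. ES against MEF named Fstl3 in its place, which fell by 3.74 (SE 0.22; limma adjusted p = 3.29e-06).

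Among the Smads, chosen for description after their values were seen, the transducers did not move together in the clones. Smad2 was at 15.8 and 15.4 RPKM in ES cells and 6.92 to 8.68 in the 4 clones, and Smad4 was at 43.5 and 45.9 in ES cells and 22.7 to 25.3 in the clones. Smad3 was at 2.51 and 2.32 in ES cells and 5.42 to 6.07 in the clones. In 3F+IL6 and 4F against ES, Smad2 differed by −0.92 and −0.81, Smad4 by −0.87 and −0.91, and Smad3 by 1.00 and 0.93, all called (limma adjusted p at most 0.000489). Skil, a nuclear repressor of Smad signalling also chosen after its values were seen, was higher by 1.37 and 1.02 (limma adjusted p = 2.84e-05 and 9.35e-05).

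Genes whose levels over the 8 libraries were most like those of a member were ranked by the root mean square difference of log2(RPKM + 1), centred on each gene's mean, in which a smaller value is more alike. For Tdgf1 the nearest were Pou5f1 (0.184), Utf1 (0.26), Bex1 (0.506), Dppa5a (0.575) and Zfp42 (0.705), of which Pou5f1, Utf1, Dppa5a and Zfp42 are established markers of pluripotent cells. For Nodal they were Phc1 (0.127), Grb7 (0.149), Ifitm1 (0.178), Gng3 (0.183) and Qprt (0.185). For Lefty2 they were Cldn6 (0.578), Aass (0.598), Cldn7 (0.715), Ap1m2 (0.728) and Usp26 (0.757). With unnamed predicted genes left out, none of the ranked genes followed Lefty2 as closely as the nearest followed Nodal. Cldn6, a tight junction gene, was at 10.1 and 10.8 RPKM in ES cells, 106.0 and 94.7 in 3F+IL6, 103.6 and 93.1 in 4F, and under 0.04 in MEF. Among the members themselves Nodal and Acvr2b were nearest to each other (0.634), as were Acvr1b and Acvr2a (0.802). The measure is also small for genes that change little. Acvr1b was higher and Acvr2a lower in the pluripotent libraries than in MEF, so their pairing is no shared pattern. Lefty1 was nearest to Nodal (0.822), Lefty2 to Lefty1 (0.856), Gdf3 to Nodal (0.92) and Tdgf1 to Gdf3 (1.62). Most of these pairings of members changed with a pseudocount of 0.1, where Gdf3 was the nearest member to Nodal (0.912) and to Acvr2b (1.32), Acvr2b to Lefty1 (1.32), and Nodal to Lefty2 (1.48) and Tdgf1 (1.16). The pairing of Acvr1b with Acvr2a (0.946) and Nodal as the nearest to Gdf3 were kept. With that pseudocount the 5 nearest genes of Nodal shared 1 with this list and those of Tdgf1 shared 3. The 8 libraries are 4 pairs and not independent conditions.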

How the data were processed

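Poly-A RNA of 8 libraries was made into TruSeq libraries, per the labels' protocols, and the submitters' processing notes name mm10 as the build for the 50-base reads. The sources used here give no aligner, counting tool, strand setting or gene models. The authors deposited 1 table of RPKM values per library; no header names the unit, which was read from the values. Low RPKM values times transcript length gave whole reads within 0.1 for 52.0% to 56.3% of values only, so counts were not recovered, and depth is an estimate. limma 3.58.1 in R 4.3.3 (trended variance, 8 libraries in 1 fit, no replicate block, 13200 genes) tested 6 comparisons of log2(RPKM + 1); the fit was tested on simulated data. The members, gene lists and tests were chosen with earlier results of these data known. All members are named; of the other pathway genes, the 4 with the largest absolute difference among those called without overlap per comparison, of which 1 is not reported here. Smad2, Smad3, Smad4, Skil and Inhbb, and the comparison of single clones for mesendoderm genes, were chosen after values were seen. Likeness names the 5 nearest genes, unnamed predicted genes left out. Alternatives were the pseudocount, filters, scalings, variance trend, samples fitted, replicate block, a covariate, a subtracted fibroblast share and each library left out. Coordinates are 1-based mm10, from GENCODE release M21; promoters are RefSeq's.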

Additional observations from a re-analysis of the deposited data

How the results depend on the processing

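For the members and named pathway genes, 114 differences were recomputed under 18 alternatives. Some alternatives cannot move a difference, such as leaving out a library of a group not compared, and change only its p-value. The counts that follow are therefore no measure of robustness. Of 2046 values, 1963 kept their direction and side of the threshold, 23 lost and 22 gained a call, and 38 changed sign, of which 1 had been called. That one was Fst in 3F+IL6 against ES, −0.65 with the fibroblast share subtracted; Fst in 4F against ES was then also −0.65 and Furin in 3F+IL6 against ES −0.63. These follow from the subtraction itself, since both genes are high in MEF. The sensitive comparison was 3F+IL6 against 4F. There the 177 calls over all genes became 56 with a pseudocount of 0.1, 315 with quantile normalization, 12 in the fit of only the 4 libraries compared, 36 with the replicate block, 2 with RNAs without a poly-A tail as a covariate, 316 with the fibroblast share subtracted, and 1 to 4782 when a library was left out; the cause was not tested. Members called were 0 to 4 and other pathway genes 0 to 10 when a library was left out, and 1 other pathway gene was called with quantile normalization.

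The other changes of sign were of values that had not been called. In 3F+IL6 against 4F, leaving out a library gave ranges of −0.17 to 0.84 for Lefty2, −0.32 to 0.16 for Tdgf1, −0.12 to 0.019 for Acvr1b, −0.092 to 0.12 for Acvr2b, −0.18 to 0.23 for Inhba, −0.71 to 0.017 for Fstl3, −0.0017 to 0.49 for Smad7, −0.25 to 0.032 for Smad2 and −0.039 to 0.11 for Smad4. The covariate gave Tdgf1 0.064 and Acvr1b 0.0036, median centring gave Acvr2b −0.024, Inhba −0.018 and Smad4 −0.0018, and quantile normalization gave Acvr2b −0.026 and Inhba −0.043. In 3F+IL6 against ES the ranges were −0.052 to 0.43 for Tdgf1, −0.013 to 0.023 for Acvr2b and −0.029 to 0.093 for Foxh1, and Acvr2b was −0.022 with median centring and −0.016 with quantile normalization. In 4F against ES the range of Acvr2b was −0.12 to 0.097. Median centring put it at 0.002, quantile normalization at 0.0096, and the subtracted fibroblast share at 0.098, while Fst was −0.16 with quantile normalization. Against MEF the ranges were −0.19 to 0.090 for Smad2 and −0.44 to 0.11 for Inhbb in 3F+IL6. Smad2 in 4F was −0.017 with median centring and −0.019 with quantile normalization.

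Of the 5 genes nearest to a member, 1 was shared with a pseudocount of 0.1 for Nodal and 3 for Tdgf1. The stricter letters TGTGNATT occurred in 0 member promoters, against 3.6% of all. Deviations of same-numbered libraries correlated at −0.0553 to 0.214, the highest being that of ES with MEF. RNAs without a poly-A tail summed to 89.8 and 46.5 RPKM in ES 1 and MEF 1, and to 704.1 and 267.5 in ES 2 and MEF 2. Whether the replicate numbers pair libraries was therefore not settled. The replicate block moved the count of 177 to 36 and changed no call of a member. Levels near 0.1 RPKM or lower rest on a few reads at these depths.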

Other observations

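Ranked by the excess of log2(RPKM + 1) over the highest of the other libraries, Cer1 was the leading symbol of 3F+IL6 clone 2 among all 23389 symbols, with an excess of 3.77. In that clone 26 symbols exceeded every other library by more than 1, against 3 in 3F+IL6 clone 1 and 9 to 12 in each other library. This ranking was made after the Cer1 values were seen. Besides Cer1, the mesendoderm genes Lhx1 (rank 9), Fgf8 (rank 17) and Foxa2 (rank 23) were among the 26. Trh, which encodes thyrotropin-releasing hormone, was at 168.8 RPKM in clone 2 and at most 50.0 elsewhere. Cyp26a1, an enzyme that degrades retinoic acid, was at 5.51 and at most 1.5 elsewhere, and the ligand gene Bmp2 was at 1.88 and at most 0.288. Genes of other kinds were in the same group, among them the pepsinogen gene Pga5 (9.19, at most 0.964 elsewhere), the chemokine gene Ccl11 (42.3, at most 17.6) and the protease inhibitor gene Slpi (35.3, at most 17.0). Whether any of these changed with the same cells as Cer1 was not tested.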
